A study of Homo sapiens with 66 samples.

Results

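The NF-κB feedback genes and inflammatory cytokines TNF, IL1B, IL6, CXCL8, NFKBIA, TNFAIP3, NFKB1, NFKB2, RELB, and BIRC3 were followed through 2 RNA-seq studies of THP-1 cells, a human monocytic leukemia cell line. The 10 genes were chosen by name, with earlier results of these data known, and were found by their Ensembl identifiers among 57820 genes. Cas9-transgenic cells were nucleofected with gRNAs, the short RNAs that direct Cas9 to a gene, against ADAR, HNRNPC, both (ADAR+hnRNPC), or GFP, or with a nontarget gRNA (CTRL). Study 1 used a STING-deficient clone, and its 48 libraries of total RNA fell into 16 groups with 3 replicates each. The 5 gRNA groups were sampled 3, 4, and 5 days after nucleofection, and another group of CTRL cells received IFN-α from day 3 and was sampled on day 4. Study 2 used a wild-type clone and other gRNAs, and had 18 libraries of day 4 in 9 groups of 2 replicates. Total RNA and cytosolic RNA were sequenced from CTRL, ADAR, hnRNPC, and ADAR+hnRNPC cells of study 2, and nuclear and mitochondrial RNA from hnRNPC cells. The groups of both studies carried Cas9, and each study rested on 1 clone. The targeted cells were not cloned after nucleofection. ADAR, which edits adenosine to inosine in double-stranded RNA, and hnRNPC, a nuclear RNA-binding protein, were targeted to ask whether their combined loss lets cells sense their own RNA.

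NF-κB is a family of transcription factors that are held inactive in the cytosol and enter the nucleus after signals from cytokine receptors and pattern recognition receptors. NFKB1, NFKB2, and RELB encode subunits of the family, and the transcription of each responds to NF-κB itself. NFKBIA encodes IκBα, which returns NF-κB to the cytosol, TNFAIP3 encodes a ubiquitin-editing enzyme that ends the upstream signal, and BIRC3 encodes a ubiquitin ligase of the TNF receptor complex. TNF, IL1B, IL6, and CXCL8 encode the cytokines and the neutrophil chemokine by which monocytic cells spread the signal.

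The genes lie on 8 chromosomes in GRCh37, the build of the deposited counts. The feedback genes are NFKBIA (chr14:35870285-35873955, minus strand), TNFAIP3 (chr6:138188351-138204451, plus), and BIRC3 (chr11:102188215-102210134, plus). The subunit genes are NFKB1 (chr4:103422487-103538459, plus), NFKB2 (chr10:104153867-104162281, plus), and RELB (chr19:45504719-45541450, plus). The cytokine genes are TNF (chr6:31543342-31546113, plus), IL1B (chr2:113587328-113594393, minus), IL6 (chr7:22765503-22771621, plus), and CXCL8 (chr4:74606236-74609433, plus). Exons of IL6 shared 9.91% of their bases with genes of the other strand (IL6-AS1 and STEAP1B), those of TNFAIP3 1.47% (WAKMAR2), and those of BIRC3 1.68%. The strand setting of the counting is not given in the sources used here, so reads of these overlaps cannot be assigned.

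Promoters of 9 of the 10 genes were found in RefSeq (12 promoters, GRCh38.p14, 250 bases before to 50 bases after the transcription start), and RELB was not among them. The consensus κB motif, the DNA element to which NF-κB dimers bind, was searched on both strands, with overlapping matches counted. It was found in 7 of the 12 promoters and in 6 of the 9 genes, compared with 5.91% of all 35116 promoters. Windows of the feedback genes, the subunit genes, and IL6 are shown because these genes are the ones followed below, with the motif in capitals and all sequences on the strand of the gene. For NFKB2, a match that overlaps the first of the distal start and a farther match of the other start are not shown. A match is a description of the letters and not a binding site.
NFKBIA (chr14:35404811-35404840, minus strand): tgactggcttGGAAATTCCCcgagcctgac
TNFAIP3, first match (chr6:137867182-137867211, plus strand): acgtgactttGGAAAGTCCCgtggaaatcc
TNFAIP3, next match (chr6:137867194-137867223, plus strand): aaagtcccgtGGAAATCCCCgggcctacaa
BIRC3, first match (chr11:102317275-102317304, plus strand): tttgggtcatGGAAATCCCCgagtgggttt
BIRC3, next match (chr11:102317339-102317368, plus strand): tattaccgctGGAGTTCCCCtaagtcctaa
NFKB1 (chr4:102501300-102501329, plus strand): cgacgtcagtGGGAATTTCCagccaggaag
NFKB2, distal start (chr10:102394461-102394490, plus strand): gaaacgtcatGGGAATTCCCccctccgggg
NFKB2, next match of that start (chr10:102394490-102394519, plus strand): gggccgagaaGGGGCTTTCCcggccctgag
NFKB2, other start (chr10:102395674-102395703, plus strand): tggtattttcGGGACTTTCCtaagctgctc
IL6 (chr7:22727117-22727146, plus strand): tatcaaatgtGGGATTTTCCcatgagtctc

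The window of IL6 began 73 bases before the start with its first motif base, the window of NFKB1 49 bases before it, and the matches of TNFAIP3 67 and 55 bases before it. The windows of TNF, IL1B, and CXCL8 held no match, which says only that these letters are not in that stretch. The ISRE-like motif GAAANNGAAA, the element of IFN-stimulated promoters, was found in 0 of the 12 promoters, compared with 3.57% of all promoters.

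Gene counts per library ranged from 95107690 to 152829008 in study 1 and from 49666958 to 73873756 in study 2. Of the 10 genes, 8 passed the low-count filter in both studies (average log2 CPM of at least 0.5, where CPM are counts scaled to the total of a library), as did 13193 genes of study 1 and 13650 of study 2. TNF and IL6 did not pass it, and their tests come from a fit without the filter. In edgeR's quasi-likelihood test, a gene was called higher or lower if the Benjamini-Hochberg adjusted p was at most 0.05 and the log2 fold change was at least 1 in size. Log2 fold changes are given with their SE. The study describes the replicates of a group as independent experiments, and p-values measure the spread between them. HNRNPC mRNA was lower in ADAR+hnRNPC cells on day 5 (log2 fold change −1.08) and in hnRNPC cells (−1.39), whereas in study 2 it was below CTRL without a call (−0.81 and −0.69 in total RNA). ADAR, itself an IFN-stimulated gene, differed by −0.03 in ADAR cells on day 5 and was higher in ADAR+hnRNPC cells (1.74) and with IFN-α (1.61), so its mRNA does not check the targeting in study 1. The 7 IFN-stimulated reference genes (such as IFIT1 and CXCL10) had a median log2 fold change of 9.36 in ADAR+hnRNPC cells on day 5, through which CXCL10 alone of them passed the filter (average log2 CPM 5.08, and −0.23 without that group). Of 10 monocytic markers, 8 were tested in study 1, and CD68 did not exceed 0.292 CPM in any library. Their summed level was 558 to 584 CPM in CTRL and 630 to 666 CPM in ADAR+hnRNPC cells on day 5, where ITGAM (2.31) was called and, without the filter, CD86 (3.19). The lymphoid marker CD3E did not exceed 0.0726 CPM and none of the 6 epithelial and fibroblast markers exceeded 0.832 CPM. In bulk RNA, fewer cells that express a gene and less RNA per cell cannot be told apart.

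In ADAR+hnRNPC cells on day 5, 7 members that passed the filter also without this group were all higher than in CTRL cells, with a median log2 fold change of 2.73. Of all tested genes, 9.41% were higher, and of the 13103 that passed the filter without this group 8.94% (median −0.04). IL1B was higher as well, but its average log2 CPM of 0.64 was −0.06 without this group. It was therefore tested only through the group where it was high, and its calls in study 1, here and below, are a description. In each of the 10 genes, the 3 ADAR+hnRNPC libraries lay above the 3 CTRL libraries. The share of all tested genes that separate in this way was not counted, so such counts, here and below, are a description. BIRC3 had the highest log2 fold change of the tested members and NFKB1 the lowest.

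Among the feedback genes, NFKBIA, the NF-κB inhibitor, was at 35.8, 35.9, and 45.4 CPM in CTRL cells and at 204, 205, and 259 CPM in ADAR+hnRNPC cells, a log2 fold change of 2.51 ± 0.140 (adjusted p = 2.03e-18). TNFAIP3, which ends the signal, was at 10.9, 12.8, and 16.4 CPM in CTRL cells and at 133, 139, and 163 CPM in ADAR+hnRNPC cells (3.43 ± 0.159, adjusted p = 7.9e-21). BIRC3 was at 2.25, 1.75, and 2.27 CPM in CTRL cells and at 39.9, 39.6, and 49.6 CPM in ADAR+hnRNPC cells (4.36 ± 0.166, adjusted p = 1.83e-23). The feedback genes thus stood between 5.71-fold (NFKBIA) and 20.6-fold (BIRC3) above CTRL, and no library of one group reached the range of the other.

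Among the subunit genes, RELB, the partner in the noncanonical pathway, was at 7.85, 7.22, and 9.12 CPM in CTRL cells and at 85.9, 92.3, and 108 CPM in ADAR+hnRNPC cells (3.56 ± 0.183, adjusted p = 1.8e-19). NFKB2, which encodes its precursor partner, was at 17.2, 15.6, and 16.8 CPM in CTRL cells and at 103, 101, and 126 CPM in ADAR+hnRNPC cells (2.73 ± 0.119, adjusted p = 1e-21). NFKB1, a subunit of the canonical pathway, was at 67.3, 70.3, and 71.6 CPM in CTRL cells and at 142, 147, and 160 CPM in ADAR+hnRNPC cells (1.10 ± 0.0617, adjusted p = 2.3e-18). The 95% intervals of the log2 fold changes of NFKB1 (0.98 to 1.22) and RELB (3.20 to 3.92) did not overlap.

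Among the cytokine genes, IL1B was at 0.891, 0.290, and 0.544 CPM in CTRL cells and at 9.64, 8.67, and 11.5 CPM in ADAR+hnRNPC cells (4.12 ± 0.319, adjusted p = 2.65e-14). CXCL8, the chemokine, was at 1.63, 1.99, and 2.22 CPM in CTRL cells and at 10.7, 8.23, and 11.6 CPM in ADAR+hnRNPC cells (2.39 ± 0.203, adjusted p = 3.67e-13). Both remained under 12 CPM even where they were highest in study 1. TNF had 9, 17, and 44 counts in CTRL and 175, 125, and 269 counts in ADAR+hnRNPC libraries (3.20 ± 0.480, adjusted p = 2.62e-10 without the filter). IL6 had 0 counts in each of the 3 CTRL libraries and 12, 11, and 26 counts in the ADAR+hnRNPC libraries, which is at least 18.3-fold higher against a floor of 3 counts over the CTRL group (adjusted p = 0.00971 without the filter). IL6 was at 0 in 37 of the 48 libraries of study 1, among them all CTRL, GFP, and IFN-α libraries, so its level was near the limit of detection throughout.

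**Figure D1:**
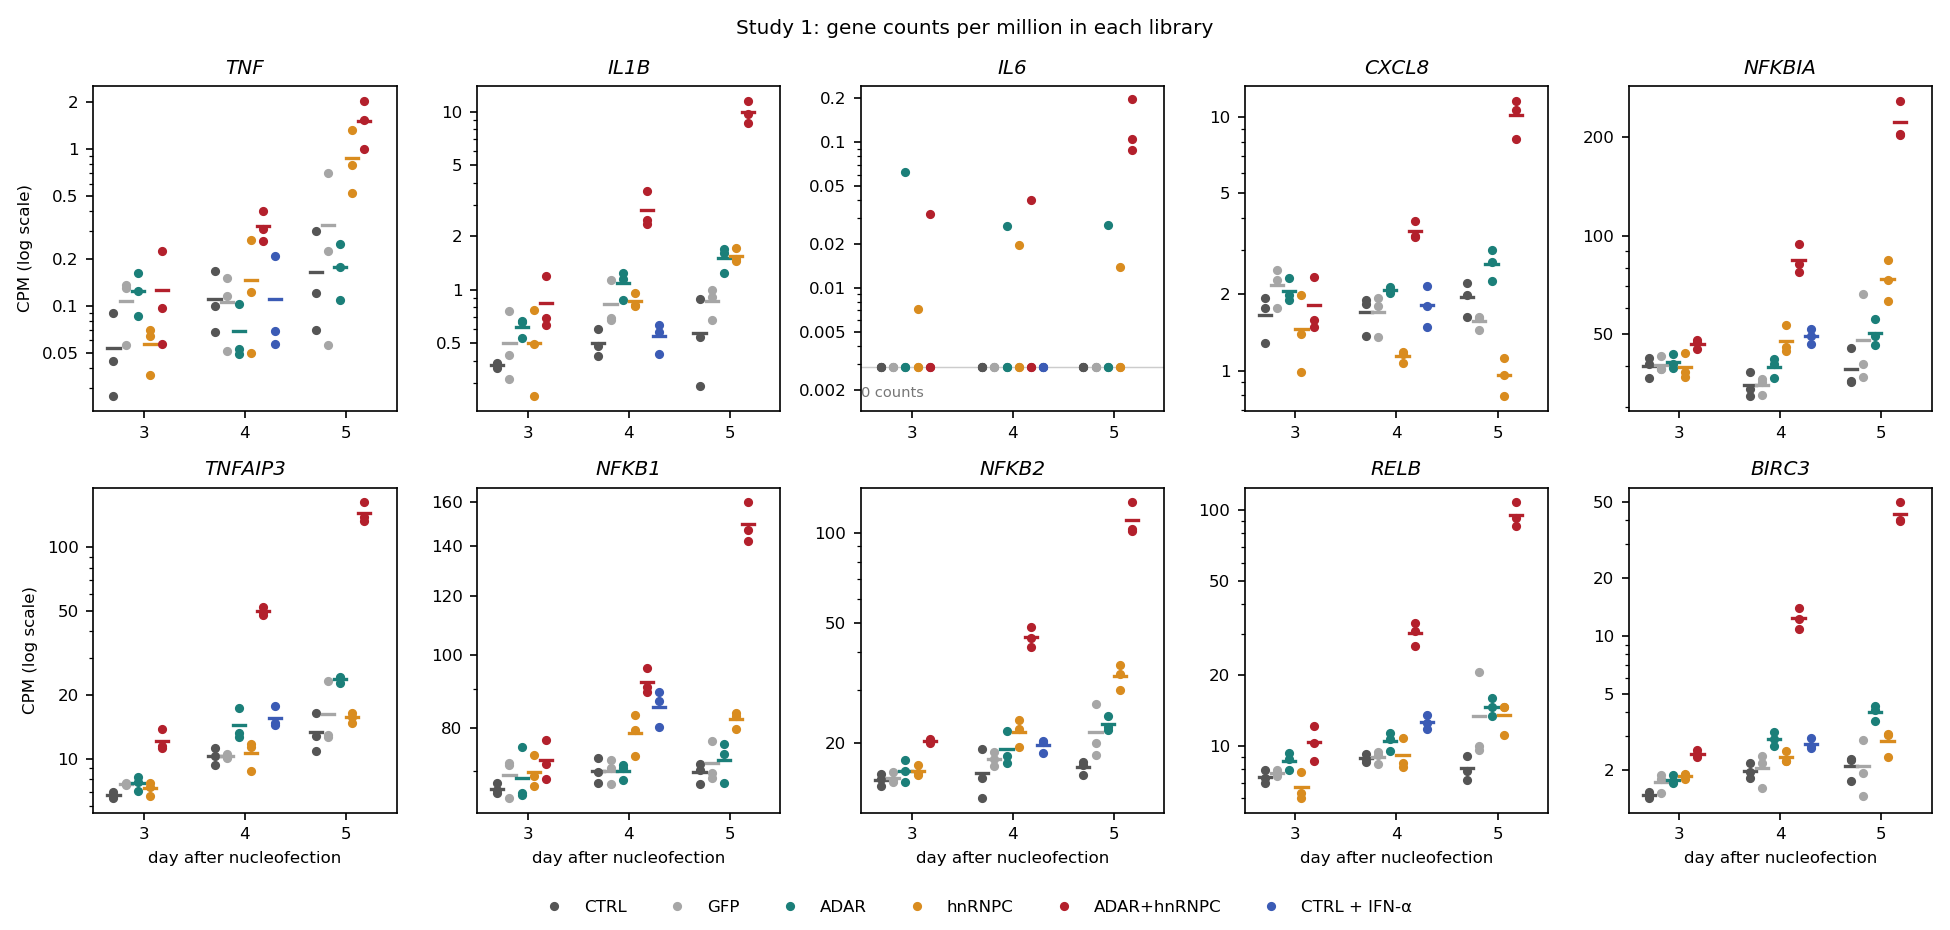
Level of each of the 10 genes in study 1 in CPM (log axis) by day (3, 4, and 5); points are libraries, colors are groups, and short bars are group means, except for IL6, whose zeros are drawn on a line of their own and which has no bars. The ADAR+hnRNPC libraries separate from CTRL by day 4 in 9 of the 10 genes and by day 5 in all 10. The share of all tested genes that separate in this way was not counted.

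The response built up over time. On day 3, IL1B was higher in ADAR+hnRNPC cells (1.19, 0.632, and 0.696 CPM against 0.386, 0.363, and 0.387 CPM in CTRL; 1.15 ± 0.330, adjusted p = 0.00745), and it was the 1 of 8 tested members that was called, compared with 0.864% of all tested genes. That call is a description, as IL1B was tested only through ADAR+hnRNPC cells of day 5. The call was lost without ADAR+hnRNPC day 3 replicate 1 (0.81, adjusted p = 0.0981) and with GFP cells as the control (0.74, adjusted p = 0.0808). TNFAIP3 (0.86, adjusted p = 3.83e-05), BIRC3 (0.72, adjusted p = 0.000611), RELB (0.49, adjusted p = 0.0298), and NFKB2 (0.42, adjusted p = 0.00426) passed the p threshold under the fold threshold. For 7 of the 10 genes, the 3 ADAR+hnRNPC libraries of day 3 lay above the CTRL libraries, a description without the share of all genes. On that day BIRC3 was at 2.54, 2.34, and 2.42 CPM against 1.54, 1.46, and 1.43 CPM in CTRL, and TNFAIP3 at 13.8, 11.3, and 11.5 CPM against 6.96, 6.54, and 6.68 CPM.

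On day 4, 7 of 8 tested members were higher in ADAR+hnRNPC cells, compared with 3.42% of all tested genes. The median log2 fold change of the 8 was 1.64. Count and median include IL1B, which was tested only through ADAR+hnRNPC cells of day 5. BIRC3 was at 10.8, 12.3, and 13.9 CPM against 1.81, 2.16, and 1.95 CPM in CTRL (2.64 ± 0.156, adjusted p = 1.18e-16). TNFAIP3 was at 52.2, 47.6, and 49.4 CPM against 11.3, 9.31, and 10.3 CPM (2.27 ± 0.154, adjusted p = 4.07e-15). IL1B was at 2.48, 2.33, and 3.57 CPM against 0.423, 0.486, and 0.601 CPM (2.46 ± 0.309, adjusted p = 1.64e-08). These 3 genes had the highest log2 fold changes of the tested members on both days 4 and 3. RELB (1.77), NFKB2 (1.5), NFKBIA (1.27), and CXCL8 (1.06) were also called. The call of CXCL8 was lost without ADAR+hnRNPC day 4 replicate 2 (0.99) or without CTRL day 4 replicate 1 (0.93). NFKB1, at 89.2, 90.8, and 96.1 CPM against 67.5, 69.8, and 72.9 CPM, passed the p threshold alone (0.39 ± 0.0612, adjusted p = 1.04e-06). TNF had 38, 48, and 33 counts in ADAR+hnRNPC libraries (1.56 ± 0.491, adjusted p = 0.0103 without the filter), a call that was lost without ADAR+hnRNPC day 4 replicate 2 (1.39, adjusted p = 0.085), CTRL day 4 replicate 2 (1.32, adjusted p = 0.107), or CTRL day 4 replicate 3 (1.53, adjusted p = 0.0728).

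The difference between the responses of day 5 and day 3 passed the p threshold in all 7 members other than IL1B, and 6 of them were called, compared with 7.2% of all tested genes called higher. IL1B was called too. It was highest in BIRC3 (3.65), RELB (3.07), and IL1B (2.97), and NFKB1 (0.98) was just under the fold threshold. In CTRL cells themselves, 0 of 8 members were called in either direction between day 5 and day 3 by edgeR, where 0.447% of all tested genes were called higher, 2 of 8 had an unadjusted p under 0.05, limma-voom called 0, and DESeq2 called 1. That gene was TNFAIP3, which was at 6.96, 6.54, and 6.68 CPM on day 3 and at 10.9, 12.8, and 16.4 CPM on day 5 (0.99 ± 0.153, adjusted p = 9.7e-06, 1.02 in DESeq2). BIRC3 was 0.50 higher in CTRL cells on day 5 (adjusted p = 0.0185). TNFAIP3 passed the fold threshold with DESeq2's size factors in edgeR (1.02) and without CTRL day 3 replicate 1 (1.02), CTRL day 5 replicate 1 (1.14), or CTRL day 5 replicate 2 (1.03). Each response above was therefore taken against CTRL cells of the same day.

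Targeting of ADAR alone gave smaller values. On day 3, 0 of 8 members were called by edgeR, compared with 0% of all tested genes higher, 1 had an unadjusted p under 0.05, and limma-voom and DESeq2 called 0 each. On day 4, 0 of 8 were called by edgeR, compared with 0.0682% of all tested genes higher, 4 had an unadjusted p under 0.05, limma-voom called 0, and DESeq2 called 1. The 1 was IL1B, at 0.876, 1.25, and 1.15 CPM in ADAR cells against 0.423, 0.486, and 0.601 CPM in CTRL cells (1.11 ± 0.312, adjusted p = 0.0826). Its adjusted p was 0.0347 in DESeq2, 0.00315 without the low-count filter, and 0.044 with the replicate number as a block. With the block, the number of all genes called higher or lower on day 4 went from 9 to 18. On day 5, IL1B was called in ADAR cells (1.6, 1.25, and 1.7 CPM, 1.41 ± 0.307, adjusted p = 0.00423), as the 1 of 8 tested members, compared with 0.273% of all tested genes higher. The call, a description as above, was lost without CTRL day 5 replicate 2 (1.09, adjusted p = 0.0611) and with GFP cells as the control (0.81, adjusted p = 0.159). BIRC3 (3.58, 4.29, and 4.12 CPM, 0.94 ± 0.153, adjusted p = 0.000161), RELB (0.86), TNFAIP3 (0.83), and NFKB2 (0.48) passed the p threshold alone. BIRC3 was called without CTRL day 5 replicate 3 (1.00) or ADAR day 5 replicate 1 (1.01), and TNFAIP3 without CTRL day 5 replicate 3 (1.00). For 7 of the 10 genes the ADAR libraries of day 5 lay above the CTRL libraries, again a description without the share of all genes. NFKB1 differed by 0.06 ± 0.0612.

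Targeting of hnRNPC alone moved the genes in both directions. On day 3, 0 of 8 members were called by edgeR, compared with 0.553% of all tested genes higher, 1 had an unadjusted p under 0.05, and limma-voom and DESeq2 called 0 each. On day 4, 0 of 8 were called by edgeR (1.59% of all tested genes higher), 5 had an unadjusted p under 0.05, and limma-voom and DESeq2 called 0 each. Those 5 also passed the adjusted p, with IL1B at 0.77, NFKB2 at 0.46, NFKBIA at 0.45, NFKB1 at 0.17, and CXCL8 at −0.58. On day 5, IL1B and NFKB2 were higher (2 of 8, compared with 3.98% of all tested genes) and CXCL8 was lower (1 of 8, compared with 3.74%). IL1B was at 1.48, 1.45, and 1.71 CPM (1.43 ± 0.304, adjusted p = 9.55e-05), again a description. NFKB2 was at 36.3, 30.0, and 33.8 CPM (1.01 ± 0.113, adjusted p = 8.63e-10). CXCL8 was at 0.958, 1.12, and 0.792 CPM, below all CTRL libraries of that day (−1.02 ± 0.205, adjusted p = 4.58e-05). CXCL8 was thus below CTRL in hnRNPC cells and above it in ADAR+hnRNPC cells on the same day, against the same CTRL libraries.

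NFKBIA (0.92), RELB (0.74), BIRC3 (0.43), and NFKB1 (0.24) passed the p threshold alone in hnRNPC cells on day 5, and TNFAIP3 was at 16.5, 15.8, and 14.8 CPM (0.23 ± 0.148, adjusted p = 0.172). TNF had 113, 81, and 188 counts (2.41 ± 0.471, adjusted p = 3.37e-06 without the filter). With GFP cells as the control, 0 of the 8 tested members were called on day 5, with IL1B at 0.84 (adjusted p = 0.0152), NFKB2 at 0.62 (adjusted p = 1.15e-05), and CXCL8 at −0.71 (adjusted p = 0.00375). The call of NFKB2 was also lost without CTRL day 5 replicate 2 (0.97) or hnRNPC day 5 replicate 1 (0.95). That of CXCL8 was lost without CTRL day 5 replicate 3 (−0.92) or hnRNPC day 5 replicate 3 (−0.90) and in DESeq2 (−0.99), and NFKBIA was called without CTRL day 5 replicate 3 (1.04) or hnRNPC day 5 replicate 2 (1.02). Between day 5 and day 3, the response to hnRNPC targeting was called in 0 of 8 members by edgeR, compared with 3.57% of all tested genes higher. Of the 8, 5 had an unadjusted p under 0.05 and 4 passed the adjusted p (NFKBIA 0.92, NFKB2 0.92, RELB 0.89, and CXCL8 −0.84).

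GFP cells received a gRNA against GFP and served here as a second control. By edgeR, limma-voom, and DESeq2, 0 of 8 members were called against CTRL on days 3, 4, and 5, compared with 0.0227%, 0%, and 0.212% of all tested genes by edgeR. An unadjusted p under 0.05 was found for 0 members on day 3, for 1 on day 4, and for 3 on day 5. RELB was at 10.0, 9.63, and 20.7 CPM in GFP cells on day 5 (0.74, adjusted p = 0.0116), and NFKB2 at 20, 18.2, and 26.9 CPM (0.39, adjusted p = 0.0306). GFP day 5 replicate 3 was the highest GFP library of that day in both genes, as in NFKBIA (40.6, 36.9, and 66.5 CPM) and TNFAIP3 (12.7, 13, and 23.3 CPM).

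**Figure D2:**
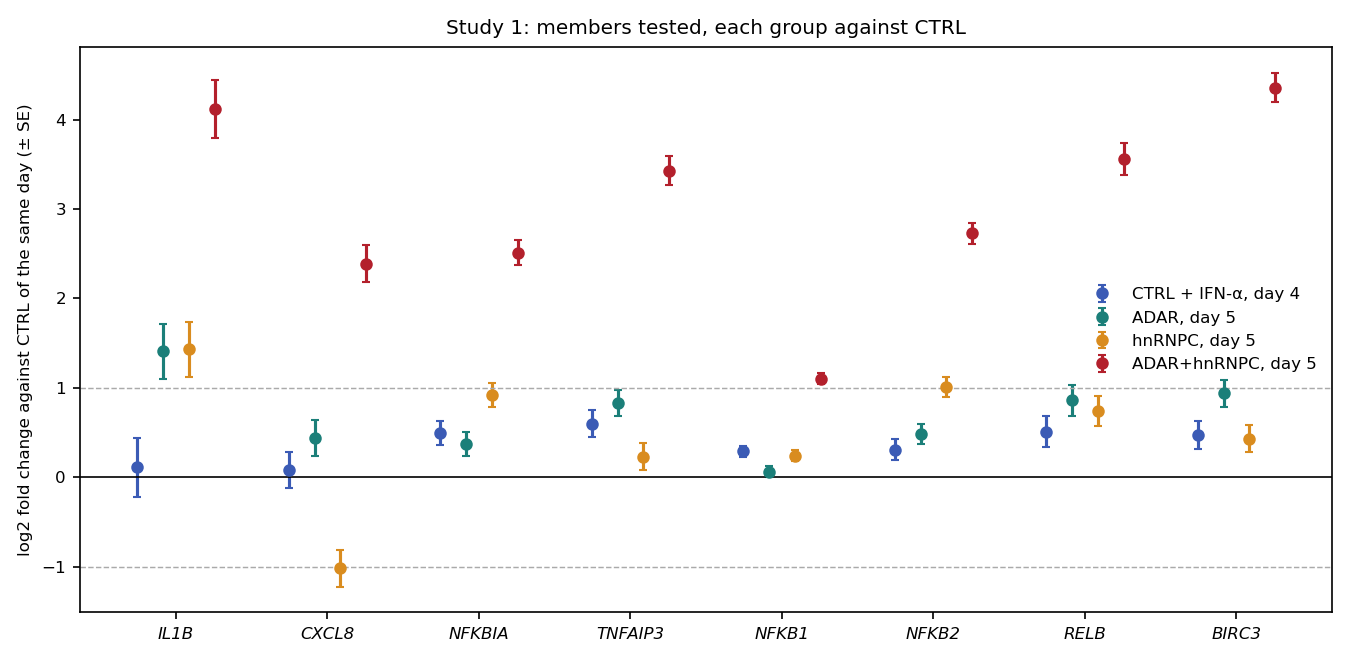
Log2 fold change of each of the 8 tested genes against CTRL cells of the same day in study 1 (points, with error bars of 1 SE and dashed lines at −1 and 1). The groups are ADAR, hnRNPC, and ADAR+hnRNPC cells of day 5 and CTRL cells with IFN-α of day 4. ADAR+hnRNPC cells on day 5 have the highest value in each of the 8 tested genes, from 1.10 in NFKB1 to 4.36 in BIRC3, and CXCL8 lies at −1.02 in hnRNPC cells of that day. IL1B was tested only through ADAR+hnRNPC cells of day 5, so its values are a description.

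Whether the response to both gRNAs exceeded the sum of the responses to each was asked with an interaction term, which is the log2 response to hnRNPC targeting in ADAR-targeted cells minus that in cells without ADAR targeting (12 libraries per day, called at an adjusted p of at most 0.05). On day 5, all 7 members other than IL1B had a positive interaction, compared with 24.1% of all tested genes. It was 3.00 ± 0.193 in BIRC3 (adjusted p = 3.87e-08), 2.97 ± 0.246 in CXCL8 (adjusted p = 4.94e-07), and 2.38 ± 0.163 in TNFAIP3 (adjusted p = 7.04e-08). RELB (1.96), NFKB2 (1.24), NFKBIA (1.23), and NFKB1 (0.81) followed. IL1B was called in each singly targeted group on that day, and its interaction was 1.27 ± 0.366 (adjusted p = 0.0103). That call was lost with limma-voom (0.93, adjusted p = 0.0528), run for interactions with library quality weights and unadjusted library totals. TNF, which had counts above CTRL in hnRNPC cells, had an interaction of 0.69 ± 0.445 (adjusted p = 0.417 without the filter).

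On day 4, 6 of 8 members had a positive interaction, compared with 3.19% of all tested genes. BIRC3 (1.85 ± 0.176, adjusted p = 0.000331), TNFAIP3 (1.74), RELB (1.48), and CXCL8 (1.36) were called, also after each single library was left out. NFKB2 (0.78, adjusted p = 0.033) was lost when 1 of 7 libraries was left out, namely ADAR replicates 2 and 3, ADAR+hnRNPC replicates 1 and 3, CTRL replicates 1 and 3, and hnRNPC replicate 2, each of day 4 (0.63 to 0.80, adjusted p = 0.0566 to 0.0947). NFKBIA (0.64, adjusted p = 0.0187) was lost without ADAR+hnRNPC replicate 3 (0.55, adjusted p = 0.0516) or hnRNPC replicate 2 (0.61, adjusted p = 0.0582). NFKB1 (0.23, adjusted p = 0.131) was called with the replicate block (adjusted p = 0.0125) and with limma-voom in its weighted form (0.32, adjusted p = 0.0033). The interaction of IL1B on day 4 was 0.58 ± 0.306 (adjusted p = 0.287). Over all genes, 607 had an interaction on day 4 in either direction, and 3245 with the replicate block. On day 3, 0 of 8 members were called by edgeR and by limma-voom, compared with 0% of all tested genes with a positive interaction by edgeR, and 3 had an unadjusted p under 0.05 (TNFAIP3 0.56, RELB 0.40, and NFKB2 0.23).

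**Figure D3:**
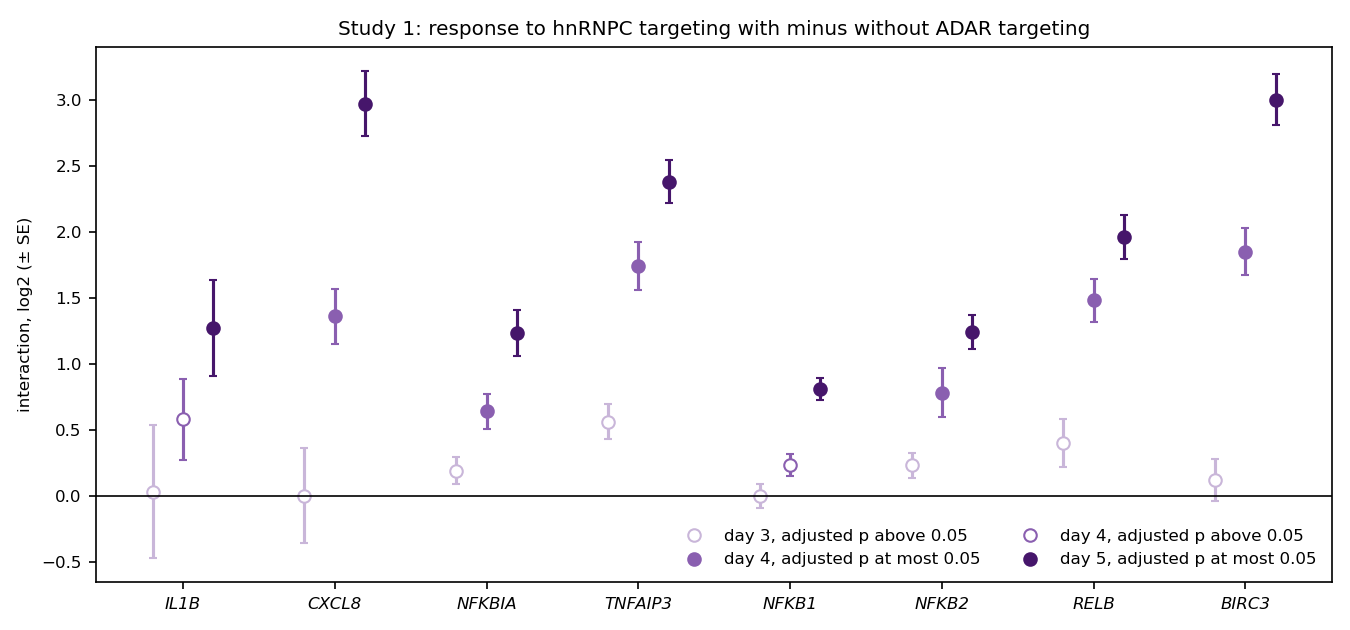
Interaction of ADAR and hnRNPC targeting on the log2 scale for the 8 tested genes on days 3, 4, and 5 (12 libraries per day; error bars are 1 SE; filled points have an adjusted p of at most 0.05). The 8 points of day 3 are open, 6 of day 4 are filled, and all 8 of day 5 are filled, between 0.81 and 3.00. IL1B was tested only through ADAR+hnRNPC cells of day 5, so its points are a description.

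Compared directly with ADAR cells of the same day, ADAR+hnRNPC cells had 0 of 8 members called by edgeR, limma-voom, and DESeq2 on day 3 in either direction, where edgeR called 0.584% of all tested genes higher, and 3 of 8 had an unadjusted p under 0.05. On day 4, 6 of 8 members were higher (2.73% of all tested genes), and CXCL8 (0.78) and NFKB1 (0.39) passed the p threshold alone. The 6 include IL1B, which was tested only through ADAR+hnRNPC cells of day 5. On day 5, all 7 members other than IL1B were higher (7.47% of all tested genes), from 3.43 in BIRC3 and 2.70 in RELB to 1.05 in NFKB1, and IL1B was at 2.71. The value of NFKB1 went to 1.00, just under the fold threshold, without ADAR day 5 replicate 1 or ADAR+hnRNPC day 5 replicate 3. IL6 had 3, 0, and 0 counts in ADAR cells of day 5 against 12, 11, and 26 counts in ADAR+hnRNPC cells, which was not called without the filter (adjusted p = 0.172) and was called when IL6 was fitted with the tested genes (log2 fold change 3.67, adjusted p = 0.00725). In that fit it was also called after each of the 6 libraries was left out in turn (3.12 to 7.02, adjusted p = 0.00712 to 0.0371).

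IFN-α gave small values for the same genes. In CTRL cells with IFN-α on day 4, 0 of 8 members were called by edgeR, limma-voom, and DESeq2, where edgeR called 1.21% of all tested genes higher, whereas the 7 IFN-stimulated reference genes were all higher (median log2 fold change 6.28). Of the 8 members, 6 had an unadjusted p under 0.05 and 5 passed the adjusted p. TNFAIP3 was at 14.7, 14.5, and 17.7 CPM with IFN-α against 11.3, 9.31, and 10.3 CPM without (0.60 ± 0.150, adjusted p = 0.00386). RELB was 0.51 higher (adjusted p = 0.033), NFKBIA 0.50 (adjusted p = 0.00759), BIRC3 0.47 (adjusted p = 0.0307), and NFKB1 0.29 (adjusted p = 0.000762). The cytokine genes did not pass either threshold, with IL1B at 0.633, 0.579, and 0.439 CPM (0.11 ± 0.327) and CXCL8 at 1.79, 2.15, and 1.49 CPM (0.08 ± 0.202).

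Compared with IFN-α cells of day 4, ADAR+hnRNPC cells of day 4 had 5 of 8 members higher (3.78% of all tested genes), namely IL1B (2.35 ± 0.311), BIRC3 (2.17 ± 0.154), TNFAIP3 (1.67 ± 0.150), RELB (1.26 ± 0.170), and NFKB2 (1.19 ± 0.114). As above, the call of IL1B is a description. NFKB1, at 80.2, 86.8, and 89.2 CPM with IFN-α, differed by 0.11 ± 0.0611 (95% interval −0.01 to 0.23). CXCL8 (0.98) passed the fold threshold in DESeq2 (1.03) and without ADAR+hnRNPC day 4 replicate 1 (1.01) or 3 (1.01) or IFN-α replicate 2 (1.12). TNF (1.54, adjusted p = 0.0119 without the filter) was lost without ADAR+hnRNPC day 4 replicate 1 (1.58, adjusted p = 0.0516) or 2 (1.37, adjusted p = 0.0963), or without IFN-α replicate 2 (1.32, adjusted p = 0.112) or 3 (1.22, adjusted p = 0.134). The response of ADAR+hnRNPC cells on day 5 exceeded the response to IFN-α on day 4 in 6 of the 7 members other than IL1B (8.95% of all tested genes), from 3.90 in BIRC3 to 2.02 in NFKBIA, with NFKB1 at 0.82. The value of IL1B was 4.00. IFN-α and ADAR+hnRNPC cells of day 4 share their CTRL libraries.

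Other genes of the pathway were counted on lists that hold none of the 10 genes. The lists were chosen with earlier results of these data known, so their counts are a description. TRAF1 is on both the core and the effector list. Of 32 tested genes of the NF-κB core and its inhibitors, 10 were higher and 0 lower in ADAR+hnRNPC cells on day 5 (median log2 fold change 0.64), where 9.41% of all tested genes were higher. NFKBIE, an inhibitor related to NFKBIA, had the highest value (2.52 ± 0.0966), followed by RBCK1 (1.98), a subunit of the linear ubiquitin ligase, MAP3K14 (1.68), the kinase of the noncanonical pathway, and NFKBIB (1.53). Of 20 tested effector targets, 9 were higher and 0 lower (median 0.84, against the same 9.41%), led by the adhesion molecule ICAM1 (5.80 ± 0.289), IRAK2 (3.38), SLC2A6 (3.22), and IRF1 (3.02). Of 10 other cytokines that passed the filter also without this group, 8 were higher and 0 lower (median 1.69, against 8.94% of all genes so filtered), led by CSF1 (5.58 ± 0.226), TNFSF10 (3.81), and IL1RN (3.49). TNFSF15 (3.37) passed the filter only through this group (average log2 CPM 0.64, and 0.14 without it), so its value is a description. With IFN-α, 0 of 32, 0 of 20, and 3 of 11 genes of these lists were higher (1.21% of all tested genes), among them CSF1 (2.22) and TNFSF10 (1.38), while ICAM1 was at −0.46 (adjusted p = 0.292). In ADAR cells on day 5, 0 of 32, 1 of 20, and 0 of 11 genes were higher (0.273% of all tested genes). In hnRNPC cells on day 5, 2 of 32, 6 of 20, and 2 of 11 were higher (3.98%), and 2 of the 11 cytokines were lower (3.74%). ADAR+hnRNPC cells of day 4 had 2 of 32, 6 of 20, and 5 of 11 higher (3.42%). In total RNA of ADAR+hnRNPC cells of study 2, 1 of 33 core genes was higher (median 0.10), compared with 3.36% of all tested genes. There, 4 of 20 effector targets (median 0.04) and 6 of 11 cytokines (median 1.2) were higher. Cytosolic RNA of these cells had 3 of 33, 6 of 20, and 8 of 11 higher (6.67%). ACTB (−0.65) and GAPDH (−0.42) were below CTRL in ADAR+hnRNPC cells on day 5, and their part in these values was not tested.

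Intron counts of study 1 gave a second readout of the same libraries. Such reads can come from RNA not yet spliced or from intron sequence kept in transcripts, which these counts do not tell apart. Counts of the introns that lie inside exactly 1 protein-coding gene were summed by gene, and 5 of the 10 genes passed the filter (NFKBIA, TNFAIP3, NFKB1, NFKB2, and RELB). In ADAR+hnRNPC cells on day 5, 4 of these 5 were higher, compared with 6.28% of all genes tested on summed introns. NFKBIA had 368, 365, and 513 intron counts in CTRL and 1746, 1948, and 2209 in ADAR+hnRNPC libraries (2.41 ± 0.164, adjusted p = 2.18e-15). RELB had 410, 306, and 511 against 1649, 1837, and 2940 counts (2.54 ± 0.252, adjusted p = 7.47e-11). NFKB2 had 431, 338, and 497 against 1505, 1647, and 2194 counts (2.23 ± 0.282, adjusted p = 2.24e-08). No ADAR+hnRNPC library of these 3 genes reached down to the CTRL libraries. TNFAIP3 had 615, 583, and 842 against 2349, 2717, and 2988 counts (2.15 ± 0.217, adjusted p = 1.19e-10), and NFKB1 passed the p threshold alone (0.63, adjusted p = 7.21e-05). Each of the 5 genes had an intron value under its exon value, which was 3.43 in TNFAIP3. BIRC3, which did not pass the filter, had 23, 19, and 23 against 257, 310, and 335 counts.

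On day 4, the summed introns of NFKB2 (1.45), NFKBIA (1.39), RELB (1.37), and TNFAIP3 (1.16) were called in ADAR+hnRNPC cells (4 of 5, compared with 2.99%). In hnRNPC cells on day 5, 0 of 5 were called by edgeR, the tool run on introns, compared with 3.6% of all genes tested on summed introns called higher, and 3 had an unadjusted p under 0.05. NFKB2 (0.99), NFKBIA (0.91), and RELB (0.90) passed the adjusted p. With IFN-α, 0 of 5 were called by edgeR, compared with 1.1% called higher, 3 had an unadjusted p under 0.05, and NFKBIA was at 0.75 (adjusted p = 0.00198). Taken singly, 3 introns of TNFAIP3 and NFKB1 passed the filter for single introns. That of TNFAIP3 (chr6:138188632-138192349 in GRCh37) was called in ADAR+hnRNPC cells on day 4 (1.10, adjusted p = 0.00411) and on day 5 (2.17, adjusted p = 7.99e-08). It was the 1 of 3 called on day 5, compared with 5.56% of all single introns tested.

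**Figure D4:**
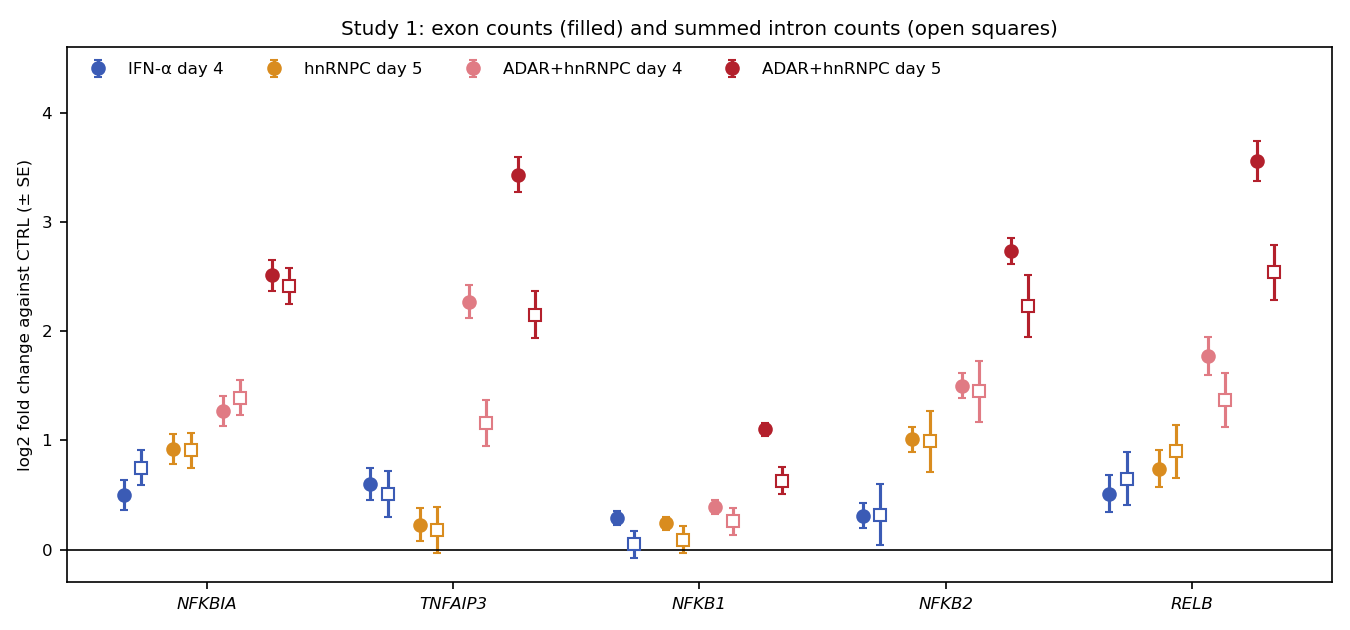
Log2 fold change of exon counts and of summed intron counts against CTRL cells of the same day in study 1 for the 5 genes whose summed introns were tested (error bars are 1 SE). In ADAR+hnRNPC cells on day 5, intron values lie between 0.63 (NFKB1) and 2.54 (RELB), and exon values between 1.10 and 3.56.

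In study 2, with the wild-type clone and other gRNAs, more of these genes were called with ADAR targeting alone. In total RNA of ADAR cells on day 4, 4 of 8 members were higher than in CTRL, compared with 2.04% of all tested genes. BIRC3 was at 10.5 and 7.92 CPM against 2.02 and 1.80 CPM (2.27 ± 0.197, adjusted p = 2.94e-06). TNFAIP3 was at 56.6 and 39.2 CPM against 13.6 and 12.1 CPM (1.89 ± 0.257, adjusted p = 0.000189). IL1B was at 7.24 and 7.75 CPM against 2.87 and 2.15 CPM (1.57 ± 0.271, adjusted p = 0.00142). With RELB (22.9 and 17.9 against 7.69 and 7.49 CPM, 1.43 ± 0.222), these genes showed no overlap between ADAR and CTRL libraries. NFKB2 (0.87, adjusted p = 0.00295) passed the p threshold alone and was called without ADAR total replicate 2 (1.05). CXCL8 was at 11.3 and 14.0 CPM against 8.69 and 4.25 CPM (0.97, adjusted p = 0.0803) and was called without CTRL total replicate 1 (1.58). In these ADAR libraries the nuclear RNAs MALAT1 (−1.15) and NEAT1 (−1.27) and the mitochondrial MT-ND1 (−1.5) were also lower, and their part in the result was not tested.

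In total RNA of ADAR+hnRNPC cells of study 2, 5 of 8 members were higher than in CTRL (3.36% of all tested genes). BIRC3 was at 16.6 and 13.6 CPM (2.98 ± 0.199), TNFAIP3 at 90.6 and 81.8 CPM (2.74 ± 0.264), IL1B at 10.8 and 8.14 CPM (1.91 ± 0.272), RELB at 29.0 and 23.5 CPM (1.79 ± 0.224), and NFKB2 at 47.1 and 40.7 CPM against 17.7 and 15.1 CPM (1.42 ± 0.166). These 5 genes lay above both CTRL libraries in both replicates. NFKBIA was at 114 and 105 CPM against 71.4 and 79.1 CPM (0.54, adjusted p = 0.0972), and CXCL8 at 13.2 and 7.75 CPM (0.69, adjusted p = 0.139, called at 1.30 without CTRL total replicate 1). IL6 had 18 and 8 counts against 0 and 0 in CTRL, at least 8.86-fold higher against the floor of 3 counts over the CTRL group (adjusted p = 0.0429 without the filter). That call was lost without ADAR+hnRNPC total replicate 1 (adjusted p = 0.0672) or CTRL total replicate 1 (adjusted p = 0.0523). TNF was at 0.744 and 0.755 CPM in ADAR+hnRNPC cells against 1.30 and 1.01 CPM in CTRL (−0.62 ± 0.359, adjusted p = 0.358), below CTRL in both libraries, where in study 1 it was above CTRL on day 4. Its levels in study 1 were lower in both groups, with means of 0.111 CPM in CTRL and 0.323 CPM in ADAR+hnRNPC cells on day 4. The difference between the studies, which differ in clone and gRNAs, was not tested.

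In hnRNPC cells of study 2, 0 of 8 members were called by edgeR, limma-voom, and DESeq2 in total RNA and in cytosolic RNA, compared with 0.733% and 0.484% of all tested genes by edgeR, and 0 had an unadjusted p under 0.05 in either. NFKB2 was at 19.9 and 17.4 CPM in total RNA (0.18 ± 0.165, 95% interval −0.14 to 0.50) and IL1B at 2.37 and 1.35 CPM (−0.44 ± 0.284, 95% interval −1.0 to 0.12). Compared with ADAR cells of study 2, ADAR+hnRNPC cells had 0 of 8 members called by edgeR in total RNA (1.71% of all tested genes higher), with an unadjusted p under 0.05 in 3, and 0 of 8 in cytosolic RNA (0.176% higher), with an unadjusted p under 0.05 in 6. TNFAIP3 (0.85, adjusted p = 0.0165), BIRC3 (0.71, adjusted p = 0.00844), and NFKB2 (0.55, adjusted p = 0.0171) passed the p threshold in total RNA, and BIRC3 (0.81, adjusted p = 0.0402) in cytosolic RNA. The interaction was called in 1 of 8 members in total RNA, TNFAIP3 (1.25 ± 0.355, adjusted p = 0.0235), compared with a positive call in 7.18% of all tested genes. In cytosolic RNA it was called in 0 of 8 by edgeR, compared with 0% of all tested genes, with an unadjusted p under 0.05 in 3. These 4 comparisons of study 2 were added after the data were seen and were run in edgeR alone.

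In cytosolic RNA of ADAR cells, 5 of 8 members were higher than in cytosolic RNA of CTRL cells (4.6% of all tested genes), and in ADAR+hnRNPC cells 6 of 8 (6.67%). BIRC3 was at 2.05 and 2.10 CPM in CTRL, 13.5 and 11.9 CPM in ADAR (2.61 ± 0.197), and 23.1 and 21.3 CPM in ADAR+hnRNPC cells (3.42 ± 0.201). IL1B was at 1.59 and 2.84 CPM in CTRL, 12.7 and 10.1 CPM in ADAR (2.37 ± 0.277), and 17.1 and 16.3 CPM in ADAR+hnRNPC cells (2.92 ± 0.279). TNFAIP3 (1.70 and 2.39), RELB (1.13 and 1.68), and CXCL8 (1.46 and 1.54) were called in both groups, and NFKB2 (1.16) in ADAR+hnRNPC cells. The ADAR calls were lost for CXCL8 without ADAR cytosolic replicate 2 (1.07, adjusted p = 0.0913) or CTRL cytosolic replicate 2 (1.41, adjusted p = 0.0644), and for RELB without ADAR cytosolic replicate 1 (0.85). The ADAR+hnRNPC call of NFKB2 was lost without ADAR+hnRNPC cytosolic replicate 1 (0.89), and NFKBIA (0.81, adjusted p = 0.015) was called without CTRL cytosolic replicate 2 (1.21). TNF was at 0.585 and 0.316 CPM in ADAR+hnRNPC against 0.974 and 1.10 CPM in CTRL cells (−1.21 ± 0.377, adjusted p = 0.0128 without the filter), a call that was lost without ADAR+hnRNPC cytosolic replicate 2 (−0.82, adjusted p = 0.108). In these cytosolic libraries NEAT1 was below CTRL in ADAR (−1.01) and ADAR+hnRNPC cells (−1.41), and MALAT1 was at −0.61 (adjusted p = 0.142) and −1.01. Of 9 tested monocytic markers, 2 were called higher in ADAR and 3 in ADAR+hnRNPC cells, with a summed level over all 10 of 346 to 370 CPM in CTRL, 479 to 523 CPM in ADAR, and 487 to 509 CPM in ADAR+hnRNPC cells. Of 2 tested lymphoid markers, NCAM1 was called higher in both groups (1.33 and 1.01), and the 6 lymphoid markers summed to 4.11 to 5.19 CPM in CTRL, 7.40 to 7.58 CPM in ADAR, and 6.51 to 7.20 CPM in ADAR+hnRNPC cells. The part of these values in the result was not tested.

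The fractions of study 2 differed little in these genes. Between the cytosolic and the total groups, 0 of 8 members were called by edgeR, limma-voom, and DESeq2, compared with 8.89% of all tested genes by edgeR, and 4 had an unadjusted p under 0.05. IL1B (0.33), NFKB1 (0.31), and BIRC3 (0.26) were on the cytosolic side and NFKB2 (−0.27) on the other. The median log2 fold change of all tested genes was itself on the cytosolic side, at 0.17. Between cytosolic and nuclear and mitochondrial RNA of hnRNPC cells, 0 of 8 were called by the same tools, compared with 30.5% of all tested genes, and 3 had an unadjusted p under 0.05. Here the median log2 fold change of all tested genes was 0.27. NFKB1 was at 90.6 and 103 CPM in cytosolic and 54.5 and 66.6 CPM in nuclear RNA (0.68 ± 0.121, adjusted p = 9.78e-05), and RELB at 10.7 and 8.20 against 4.98 and 7.64 CPM (0.58, adjusted p = 0.0282). CXCL8 (0.74, adjusted p = 0.0945) was called without hnRNPC cytosolic replicate 1 (1.19).

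**Figure D5:**
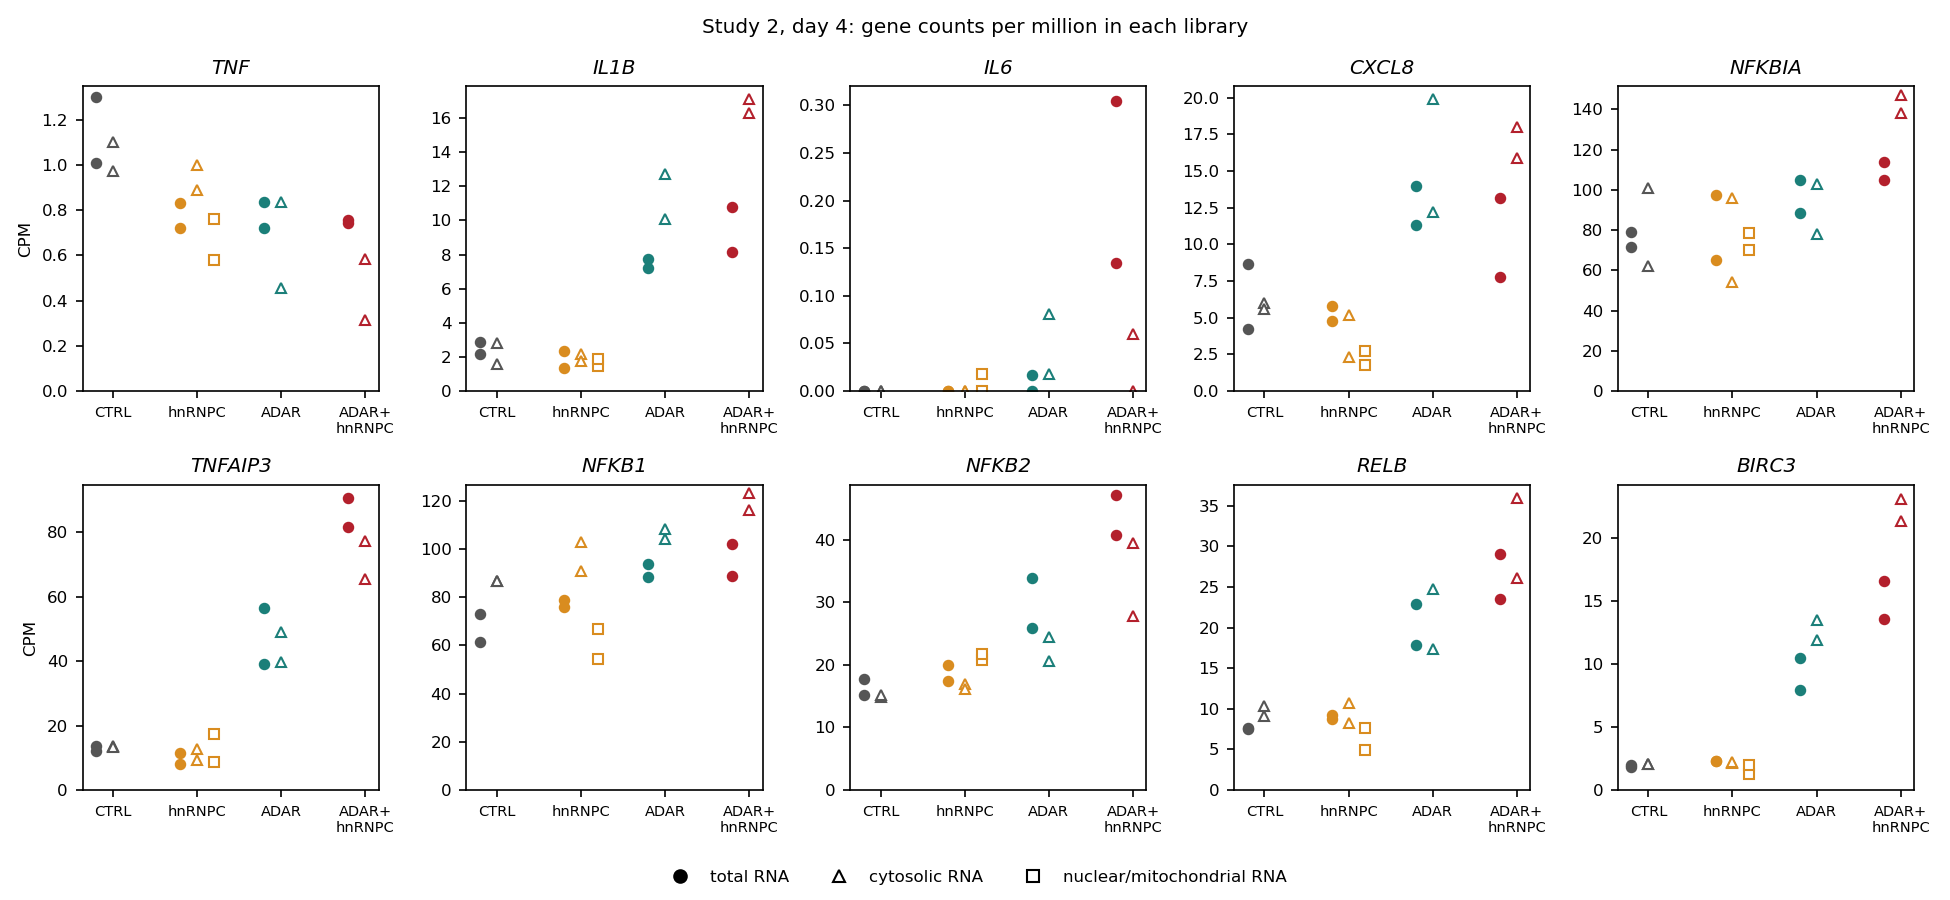
Level of each of the 10 genes in study 2 in CPM (linear axis) by gRNA group on day 4. Circles are total RNA, triangles cytosolic RNA, and squares nuclear and mitochondrial RNA of hnRNPC cells, and each point is 1 of 2 replicates. BIRC3, TNFAIP3, IL1B, and RELB are above CTRL in all ADAR and ADAR+hnRNPC libraries.

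Pearson's r between log2 CPM means of the 16 groups of study 1 described which genes varied most like each member among 13192 others. The 16 points come from 1 sequencing study and are not independent, so these values are a description. NFKBIA varied most like CLIP1 (r = 0.988), and NFKB2 (0.984) was also among its nearest 3. TNFAIP3 was nearest to TLR7 (0.982) and MAML2 (0.982), with RELB (0.979) as the next. RELB was nearest to TRIB3 (0.983), and BIRC3 to WHAMM (0.988) and TRIB3 (0.988). NFKB1 was nearest to TLK2 (0.989) and NFKB2 to PLA2G4C (0.985). IL1B was nearest to MAP3K7CL (0.975), and CXCL8 to AJUBA (0.975). Among pairs of members, NFKBIA and NFKB2 were the most alike (0.984) and CXCL8 and NFKB2 the least (0.730).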

How the data were processed

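Total, cytosolic, and nuclear and mitochondrial RNA was depleted of ribosomal RNA and sequenced (TruSeq Stranded Total RNA). Per the study's methods and the submitters' processing notes, the authors aligned reads with STAR 2.5.4a to GRCh37 and deposited whole-number counts of uniquely mapped reads, made with featureCounts over the exons of GENCODE genes and, in study 1, over introns, without normalization or pooling. 0 columns were without a sample.

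Counts were tested in R 4.3.3 with edgeR 4.0.16 (TMM, quasi-likelihood), all libraries of a study in 1 fit, with interactions fitted on 12 libraries of a day. The low-count filter was an average log2 CPM of 0.5 for genes and summed introns and of 1 for single introns. limma 3.58.1 (voom) and DESeq2 1.42.0, other normalization, no filter, GFP cells as control, a replicate block, and leaving out each library were the alternatives. For interactions, voom was run with library quality weights and unadjusted library totals, as in the study's methods. The differences between days, the direct comparisons with ADAR cells and the interactions in study 2, and the summed introns were added after the data were seen. CPM values use TMM-adjusted totals. The edgeR step alone was tested on simulated counts with known changes. Positions are from a newer GENCODE release lifted to GRCh37.

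Replicates were independent experiments per the study, and groups share replicate numbers in the labels, which do not say whether a number marks 1 experiment. Same-numbered libraries deviated together (every pair's r over 0.1) in 9 comparisons of study 1, with a lowest r between 0.121 and 0.455, so a replicate block was fitted as an alternative, and its value is given where it changed a call. The fits reported have no block. Libraries of a group were not copies (differences at least 12.1 times counting noise). All members are named; of the other lists, the 4 genes with the highest log2 fold change in ADAR+hnRNPC cells on day 5, and for likeness the nearest genes. The members and lists were chosen with earlier results of these data known.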

Additional observations from a re-analysis of the deposited data

Results flagged for a closer look

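The responses of these genes differed between cells, days, and studies in several ways. The response to hnRNPC targeting was higher in ADAR-targeted than in other cells on day 4 in BIRC3 by 1.85, TNFAIP3 by 1.74, RELB by 1.48, CXCL8 by 1.36, NFKB2 by 0.78, and NFKBIA by 0.64 on the log2 scale. On day 5 this difference was 3.00 in BIRC3, 2.97 in CXCL8, 2.38 in TNFAIP3, 1.96 in RELB, 1.27 in IL1B, 1.24 in NFKB2, 1.23 in NFKBIA, and 0.81 in NFKB1. IL1B was tested only through ADAR+hnRNPC cells of day 5, so its value is a description. In total RNA of study 2 the difference passed the test in TNFAIP3 (1.25).

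The response of ADAR+hnRNPC cells was higher on day 5 than on day 3 in BIRC3 by 3.65, RELB by 3.07, IL1B by 2.97, TNFAIP3 by 2.58, NFKB2 by 2.31, NFKBIA by 2.29, CXCL8 by 2.26, NFKB1 by 0.98, and TNF by 1.98. Here too the value of IL1B is a description. The response of hnRNPC cells was higher on day 5 than on day 3 in TNF by 2.33, NFKBIA by 0.92, NFKB2 by 0.92, and RELB by 0.89, and CXCL8 went the other way (−0.84).

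TNF was above CTRL in ADAR+hnRNPC cells of day 4 in study 1 (1.56) and below CTRL in study 2, at −0.62 in total and −1.21 in cytosolic RNA. The CTRL levels differed as well. Mean TNF in study 1 on day 4 was 0.111 CPM in CTRL and 0.323 CPM in ADAR+hnRNPC cells. In total RNA of study 2 it was 1.16 and 0.75 CPM. These differences between the studies were not tested. Explanations for these differences were not tested.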

How the results depend on the processing

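Of the alternatives for the number of members called, 339 stayed within 1.5 times the value of the report and 17 moved, and for single genes 1075 kept their call, 31 gained one, and 40 lost one. No called direction reversed under these alternatives. In ADAR cells on day 4, 1 member was called in DESeq2, 1 without the low-count filter, and 1 with the replicate block. With GFP cells as the control, 0 were called in ADAR cells on day 5, 0 in ADAR+hnRNPC cells on day 3, and 0 in hnRNPC cells on day 5. Between CTRL of day 5 and day 3, 1 was called in DESeq2 and 1 with DESeq2's size factors in edgeR. Leaving out 1 library gave 0 to 3 members in ADAR cells on day 5, 2 to 4 in hnRNPC cells on day 5, and 0 to 1 in ADAR+hnRNPC cells on day 3, between CTRL days, and between cytosolic and nuclear RNA. Summed introns gave 4 genes called in ADAR+hnRNPC cells on day 5 where single introns gave 1. Where a cause is not plain from the alternative itself, such as fewer libraries, the cause was not tested. The replicate block changed no call of a member other than IL1B in ADAR cells and the interaction of NFKB1, both on day 4. In study 2, replicates of hnRNPC and CTRL cells in total RNA (r = −0.141) and of cytosolic and nuclear RNA (r = −0.211) deviated in opposite directions, and crossing their numbers, an alternative added after the data were seen, again called 0 and 0 members. DESeq2 moved the median log2 fold change of all genes by −0.25 for cytosolic against nuclear RNA and by −0.11 for cytosolic against total RNA. TNF in CTRL cells of study 1 (at most 44 counts per library) and IL6 (at most 26) were limited by depth.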
